A study of Mus musculus with 12 samples.

Results

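The levels of 8 genes of angiotensin and peptide processing at the cell surface were examined in mouse embryonic fibroblasts (MEFs) that express different codon 61 alleles of Nras. The genes were Ace, Agt, Agtr1a, Agtr2, Mme, Enpep, Anpep and Dpp4, taken by symbol from the 24419 genes of the raw count file, and all 8 passed the filter on low counts. They were chosen from genes of shared function by someone who already knew results of these same data, and which comparison was used in the choice is not recorded. Their differences between genotypes are therefore given as a description, with no p printed, and support nothing further. The same holds for whether a gene of the 8 passed a threshold, in any fit.

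RNA was sequenced from 12 MEF cultures of C57BL/6 mice, 3 for each of 4 genotypes. The genotypes are named by the residue that codon 61 of Nras encodes on both alleles: 61R/R carries arginine, 61H/H carries histidine, 61P/P carries proline, and 61Q/Q carries glutamine, as the wild-type gene does. All 4 genotypes, 61Q/Q included, were TN animals homozygous for an Nras allele behind a loxP-flanked stop cassette and for a Cre-ERT2 transgene under the tyrosinase promoter, which is active in pigment cells. In all 12 cultures the cassette was removed with an adenovirus that encodes Cre and eGFP under the CMV promoter, and RNA was taken after 6 days in culture. The 61H, 61P and 61Q alleles were made by CRISPR-Cas9 from the 61R allele and then backcrossed 2 generations to 61R/R animals. The study classed 61R/R and 61H/H as melanomagenic and 61P/P and 61Q/Q as not, but fibroblasts, not melanocytes, were sequenced. Each culture came from a separate embryo.

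Angiotensinogen, the product of Agt, is the precursor from which renin cuts angiotensin I. Angiotensin-converting enzyme (Ace), a membrane peptidase, trims angiotensin I to angiotensin II and also degrades bradykinin, and angiotensin II acts through the receptors encoded by Agtr1a and Agtr2. Other ectopeptidases shorten the same and other peptides at the plasma membrane: aminopeptidase A (Enpep) removes the first residue of angiotensin II, aminopeptidase N (Anpep) acts on the product, neprilysin (Mme) cuts many small peptides, and dipeptidyl peptidase 4 (Dpp4) removes residue pairs that end in proline or alanine from chemokines and hormones. Agtr2 is best known from fetal mesenchyme, where it is much more abundant than in most adult tissues.

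Levels are CPM, the reads of a gene relative to the total of its library, scaled by TMM, a factor per library that centers most genes on no change. Total counts were 73222911 to 92179519 per library, and Rn45s, the ribosomal RNA precursor, took 8.89% to 13.9% of them. Nras itself was at 116 ± 8.37 CPM in 61R/R, 120 ± 4.64 CPM in 61H/H, 98.8 ± 10.1 CPM in 61P/P and 98.8 ± 5.23 CPM in 61Q/Q (SD, n = 3 each), and gene counts do not show which codon a read carries. A gene passed where its adjusted p was under 0.05 in edgeR's quasi-likelihood test over all 15759 genes tested. Each genotype held 1 female and 2 male cultures, read from Xist and Y-linked genes. The female cultures were 61R/R replicate 2, 61H/H replicate 2, 61P/P replicate 1 and 61Q/Q replicate 1.

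The sequences before the transcription start are shown for Ace and Agtr2, because these are the pair of genes whose levels followed each other most closely across the cultures. Each run is the 250 bases upstream of a RefSeq start on GRCm38.p6, the mm10 assembly, given 5′ to 3′ on the gene's own strand, with matches to the motifs named afterwards in capitals. The windows are Ace at chr11:105967698-105967947 on the plus strand, a second Ace start inside the gene at chr11:105974939-105975188 on the plus strand, and Agtr2 at chrX:21484374-21484623 on the plus strand.
Ace, upstream start: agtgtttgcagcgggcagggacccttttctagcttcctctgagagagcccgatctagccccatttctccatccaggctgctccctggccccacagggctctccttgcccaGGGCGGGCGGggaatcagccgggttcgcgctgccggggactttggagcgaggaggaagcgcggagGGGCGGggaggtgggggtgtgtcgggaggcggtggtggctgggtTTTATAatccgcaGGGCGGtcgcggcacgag
Ace, internal start: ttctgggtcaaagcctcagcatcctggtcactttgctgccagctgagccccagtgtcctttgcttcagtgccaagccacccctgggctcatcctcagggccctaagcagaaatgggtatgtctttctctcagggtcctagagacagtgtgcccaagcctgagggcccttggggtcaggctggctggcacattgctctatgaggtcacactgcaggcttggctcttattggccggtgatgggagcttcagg
Agtr2: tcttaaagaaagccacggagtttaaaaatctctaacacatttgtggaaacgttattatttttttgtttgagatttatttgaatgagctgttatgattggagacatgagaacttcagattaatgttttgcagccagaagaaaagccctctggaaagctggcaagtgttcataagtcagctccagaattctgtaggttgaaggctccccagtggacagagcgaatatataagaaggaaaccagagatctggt

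The upstream Ace window serves the somatic form of the enzyme and the internal one the shorter form of male germ cells. The count file holds 1 value for Ace, so the starts could not be told apart here. The upstream window held the GC box (letters GGGCGG) at 4 places on the gene's strand, the first pair overlapping, and the TATA box (letters TATAAA) on the opposite strand, 31 bases before the start, and its GC content was 67.2%. The internal Ace window (58% GC) and the Agtr2 window (38.4% GC) held none of the 4 motifs searched on both strands, which were the GC box, the TATA box, the AP-1 site with the letters TGANTCA and the ETS site with the letters CCGGAAG. Of 32851 such windows in RefSeq, 32.7% held the GC box, 12.4% the TATA box, 6.75% the AP-1 site and 6.91% the ETS site. Only these exact letters were searched, so near variants were not counted, such as tatataag close to the start in the Agtr2 window. Whether a gene lacks such an element is therefore not shown. Windows were matched for 7 of the 8 genes. The AP-1 site was in 1 of the 3 Mme windows and in no other matched window, and the ETS site was in none.

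Across the 8 genes, Ace and Agtr2 stood lowest in 61Q/Q and higher in all mutant genotypes. Mme had its highest mean in 61P/P, as Agt, Agtr1a, Enpep and Anpep also did. Enpep and Anpep were somewhat higher in every mutant culture than in any 61Q/Q culture, while Agt, Agtr1a and Dpp4 overlapped 61Q/Q in most comparisons. In 61R/R over 61Q/Q, 2 of 8 genes passed, both higher (Ace and Agtr2), where 9.43% of all genes tested passed as higher and 19% in either direction. In 61H/H over 61Q/Q, the same 2 of 8 passed, where 13.8% of all genes passed as higher and 28.2% in either direction. In 61P/P over 61Q/Q, 2 of 8 passed, both higher (Ace and Mme), where 3.15% of all genes passed as higher and 6.85% in either direction. Because of how the genes were chosen, nothing is read from these shares.

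The median log2 fold change over the 8 genes over 61Q/Q was 0.42 for 61R/R, whereas it was 0.68 for 61H/H and reached 1.71 for 61P/P. The medians over all genes tested were 0.01 in each of these 3 comparisons. The median for 61P/P depended on 61P/P replicate 1. Without that culture the log2 fold change in 61P/P was lower for each of the 8 genes. It was 2.57 for Ace, 1.37 for Mme, 0.92 for Enpep, 0.30 for Anpep and 0.11 for Agt. It was -0.09 for Agtr1a and -1.67 for Dpp4. A median without that culture was not computed, so 61P/P is not ranked above 61H/H here. All 3 comparisons share the 61Q/Q cultures. In bulk cultures, fewer cells that express a gene and less RNA per cell cannot be told apart.

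**Figure D1:**
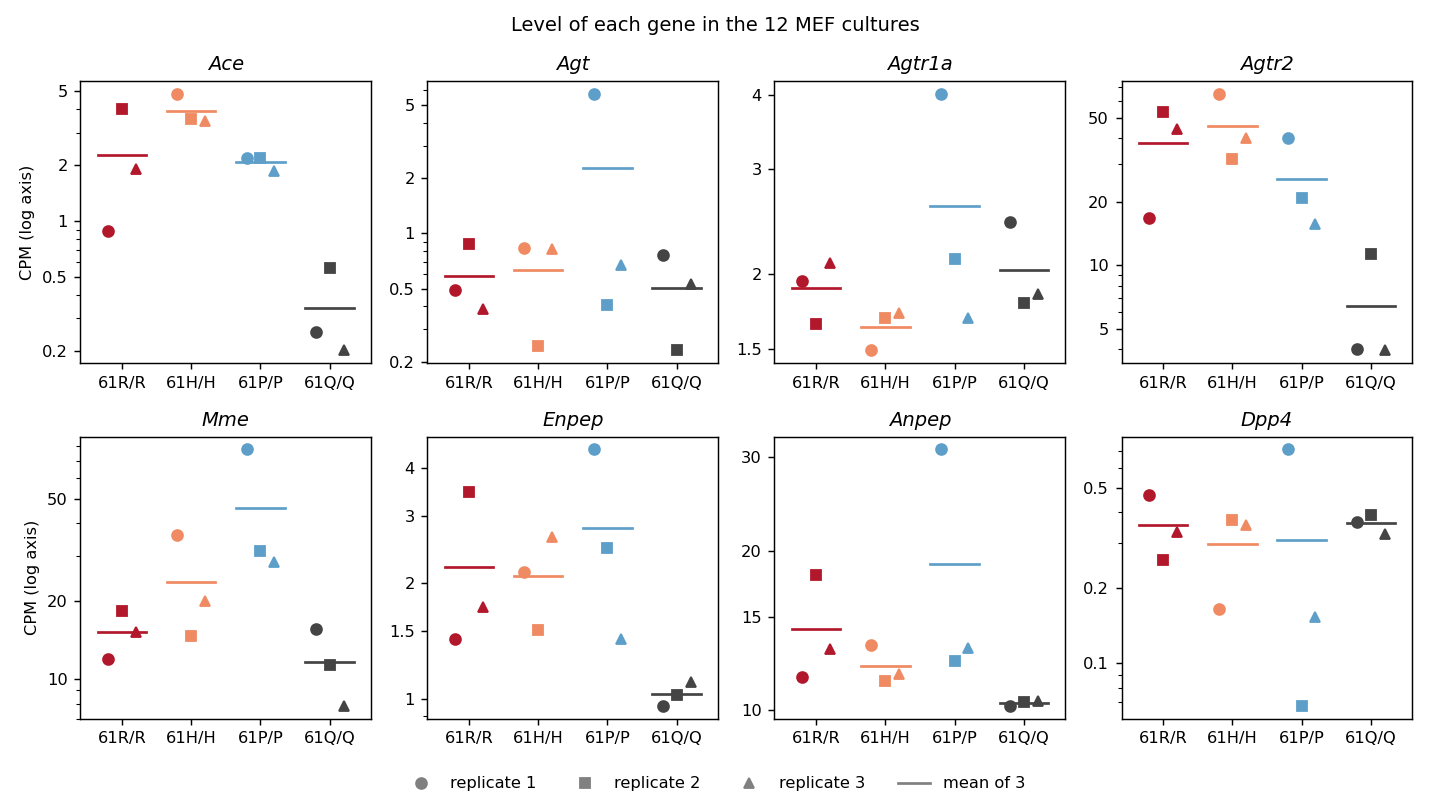
CPM (log axes, with a scale for each gene) of the 8 genes in each culture of the 3 mutant genotypes, with 61Q/Q last; marker shapes are replicates 1 to 3 and horizontal lines are means of 3 cultures. The 61Q/Q cultures lie at 0.201 to 0.560 CPM of Ace, below all 9 mutant cultures, and 61P/P replicate 1 is the highest culture for 6 of the 8 genes.

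Agt, the substrate gene of the pathway, was at 0.494, 0.876 and 0.389 CPM in 61R/R replicates 1 to 3, at 0.834, 0.243 and 0.818 CPM in 61H/H, at 5.73, 0.407 and 0.674 CPM in 61P/P, and at 0.760, 0.231 and 0.529 CPM in 61Q/Q. A single culture, 61P/P replicate 1, stood above the rest, and the other 11 cultures lay between 0.231 and 0.876 CPM in every genotype. The log2 fold change of Agt over 61Q/Q was 0.22 (SE 0.91) in 61R/R, 0.33 (SE 0.91) in 61H/H and 2.17 (SE 0.90) in 61P/P, and none passed. DESeq2 let Agt pass in 61P/P, where 15.3% of all genes passed, while without 61P/P replicate 1 the log2 fold change there was 0.11. Those 11 libraries held 19 to 78 counts of Agt.

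Ace was at 0.879, 4.04 and 1.90 CPM in 61R/R replicates 1 to 3, at 4.85, 3.53 and 3.45 CPM in 61H/H, and at 2.18, 2.20 and 1.86 CPM in 61P/P. In the 61Q/Q replicates it was at 0.253, 0.560 and 0.201 CPM, from 18, 46 and 16 counts. The lowest mutant culture, 61R/R replicate 1, was still above the highest 61Q/Q culture, replicate 2, so each mutant genotype was clear of 61Q/Q. Mean Ace levels were 2.27 ± 1.61 CPM in 61R/R, 3.95 ± 0.785 CPM in 61H/H, 2.08 ± 0.192 CPM in 61P/P and 0.338 ± 0.194 CPM in 61Q/Q (SD, n = 3 each). The spread within 61R/R was 4.60-fold between its lowest and highest culture, against 1.41-fold in 61H/H and 1.18-fold in 61P/P.

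The log2 fold change of Ace over 61Q/Q was 2.73 (SE 0.52) in 61R/R, 3.53 (SE 0.53) in 61H/H and 2.60 (SE 0.52) in 61P/P, which are 6.66-fold, 11.5-fold and 6.07-fold. When single cultures were left out, the estimates for 61R/R ran from 2.03 to 3.32, those for 61H/H from 3.26 to 4.11 and those for 61P/P from 2.33 to 3.19. Ace passed in 61H/H whichever culture was left out, where 11.8% to 34.3% of all genes passed. Because of how the genes were chosen, this too is only a description. In 61R/R it no longer passed without 61R/R replicate 2 or 3 or without 61Q/Q replicate 1 or 3, where 0% of all genes passed either. In 61P/P it no longer passed without 61P/P replicate 1, 61P/P replicate 2, 61Q/Q replicate 1 or 61Q/Q replicate 3, where 1.40%, 0.0312%, 0.363% and 0% of all genes passed. Exons of Ace overlap those of Gm11651 on the opposite strand, and the strand setting of the counting was not given in the sources used here.

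Of the receptors, Agtr1a encodes the type 1 receptor, which carries the pressor actions of angiotensin II. It was at 1.95, 1.65 and 2.09 CPM in 61R/R replicates 1 to 3, at 1.49, 1.69 and 1.72 CPM in 61H/H, at 4.01, 2.12 and 1.69 CPM in 61P/P, and at 2.45, 1.79 and 1.85 CPM in 61Q/Q. Apart from 61P/P replicate 1 the cultures lay close together, and only the 61H/H cultures were all below the 61Q/Q cultures. The log2 fold change was -0.10 (SE 0.28) in 61R/R, -0.31 (SE 0.28) in 61H/H and 0.36 (SE 0.28) in 61P/P, and none passed. Without 61P/P replicate 1 the value for 61P/P was -0.09.

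Agtr2 encodes the type 2 receptor and lies on the X chromosome. It was at 16.8, 53.4 and 44.1 CPM in 61R/R replicates 1 to 3, at 64.7, 31.8 and 40.2 CPM in 61H/H, at 40.1, 20.8 and 15.7 CPM in 61P/P, and at 4.0, 11.3 and 3.97 CPM in 61Q/Q. No mutant culture fell within the range of the 61Q/Q cultures, and 61R/R replicate 1 and 61P/P replicate 3 were nearest to it. Mean levels were 38.1 CPM in 61R/R, 45.6 CPM in 61H/H, 25.5 CPM in 61P/P and 6.44 CPM in 61Q/Q.

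The log2 fold change of Agtr2 over 61Q/Q was 2.56 (SE 0.55) in 61R/R, 2.82 (SE 0.56) in 61H/H and 1.98 (SE 0.54) in 61P/P, which are 5.90-fold, 7.06-fold and 3.95-fold. It passed in 61R/R and 61H/H and not in 61P/P. In 61P/P it did pass without 61Q/Q replicate 2, the highest of the 61Q/Q cultures, where the log2 fold change was 2.68 and 15% of all genes passed. It also passed there without 61R/R replicate 1 (11% of all genes) and with no filter on low counts (4.79%). The same held with a minimum of 1 CPM in every library (9.31%) and with DESeq2 (15.3%). In 61R/R it no longer passed without the same 4 cultures as Ace, and its estimates without single cultures ran from 2.24 to 3.26. With the sex of the culture as a term, an alternative chosen after the data were seen, Agtr2 was at 2.52 in 61R/R and still passed.

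**Figure D2:**
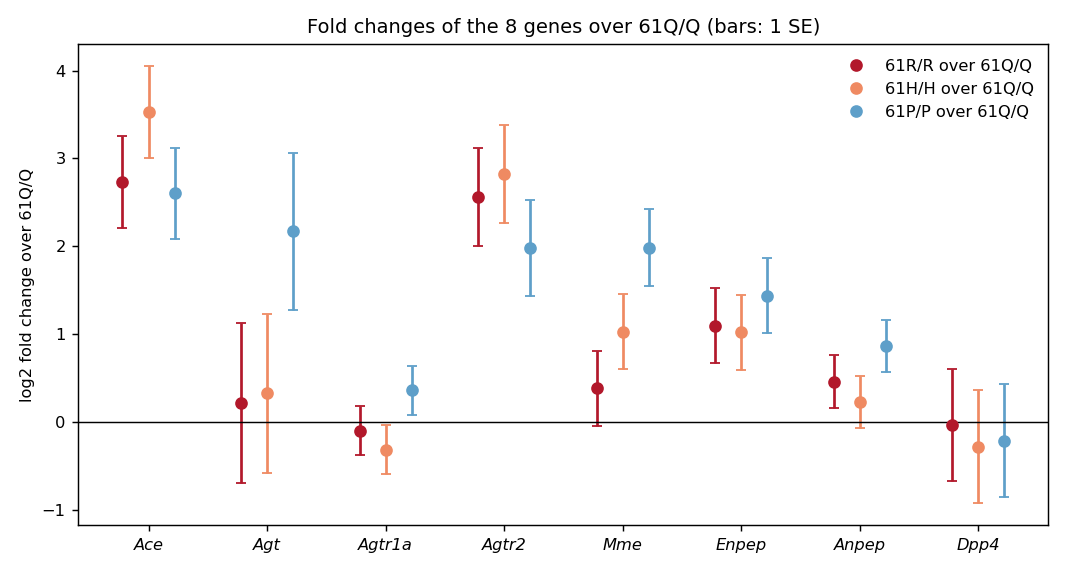
Log2 fold change over 61Q/Q (vertical axis) of each of the 8 genes in the 3 mutant genotypes; points are edgeR estimates and bars are 1 SE. Ace and Agtr2 lie at 1.98 to 3.53 in all 3 genotypes. Agt, Agtr1a, Mme, Enpep and Anpep are highest in 61P/P, at 2.17 for Agt and 1.98 for Mme.

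Ace and Agtr2 followed each other from culture to culture. Over the 12 cultures the correlation of their log2 CPM was r = 0.947 (Spearman's rho 0.888), and it was r = 0.844 after each genotype's mean was subtracted. The CPM of Agtr2 was 8.43 to 23.3 times that of Ace, a 2.76-fold range, although Ace itself varied 24.1-fold and Agtr2 16.3-fold. In 61R/R, replicate 1 was lowest and replicate 2 highest for both genes, in 61H/H replicate 1 was highest for both, and in 61Q/Q replicate 2 was highest for both. In 61P/P the genes did not follow the same order, since Ace was highest in replicate 2 and Agtr2 in replicate 1, and the ratio of Agtr2 to Ace there was 18.4, 9.48 and 8.43 in replicates 1 to 3. The lowest 61H/H culture also differed, replicate 3 for Ace and replicate 2 for Agtr2. The cultures share genotypes and libraries, so this is a description, and Agtr2 ranked 64 of 12003 genes compared by its correlation with Ace. The other members followed Ace less closely, with r = 0.729 for Enpep, 0.571 for Mme, 0.440 for Anpep, 0.181 for Agt, -0.208 for Agtr1a and -0.269 for Dpp4.

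**Figure D3:**
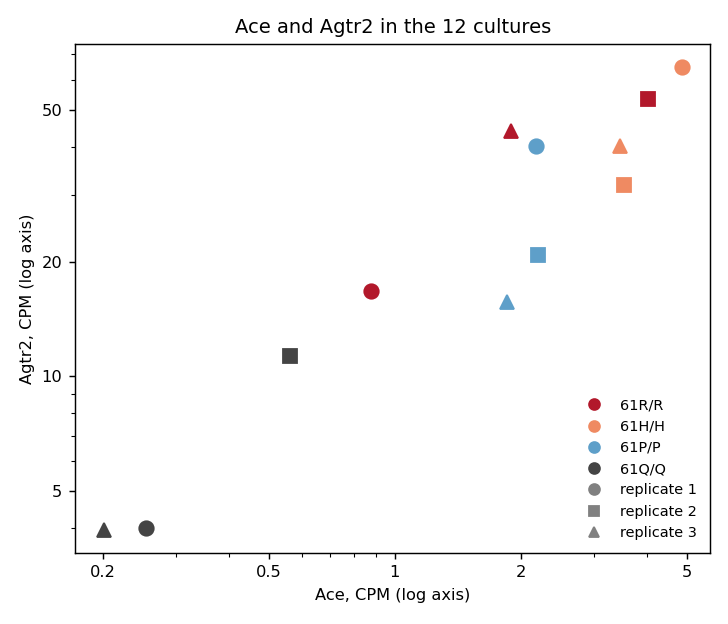
CPM of Agtr2 (vertical, log axis) against CPM of Ace (horizontal, log axis) in the 12 cultures, colored by genotype, with the replicate as marker shape. The 61Q/Q cultures are at the lower left, at 0.201 to 0.560 CPM of Ace and 3.97 to 11.3 CPM of Agtr2, with 61R/R replicate 1 next to them at 0.879 and 16.8 CPM.

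Enpep and Anpep, the aminopeptidases that act on angiotensin II and its product, showed smaller differences of the same sign in all mutants. Enpep was at 1.43, 3.46 and 1.73 CPM in 61R/R replicates 1 to 3, at 2.14, 1.51 and 2.64 CPM in 61H/H, at 4.48, 2.47 and 1.43 CPM in 61P/P, and at 0.957, 1.02 and 1.11 CPM in 61Q/Q. Every mutant culture was above every 61Q/Q culture, and the 61Q/Q cultures were within 1.16-fold of each other. The log2 fold change was 1.10 (SE 0.43) in 61R/R, 1.03 (SE 0.42) in 61H/H and 1.44 (SE 0.43) in 61P/P, and none passed over all genes tested.

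Enpep did pass in 61R/R when 61R/R replicate 1 or 61P/P replicate 1 was left out, where 27.3% and 24% of all genes passed. With all cultures 19% did. In 61H/H it passed without 61P/P replicate 1, where 32.5% of all genes passed, against 28.2% with all cultures. In 61P/P it passed without 61R/R replicate 1 (11% of all genes), 61R/R replicate 2 (6.94%) or 61P/P replicate 3 (5.15%), against 6.85% with all cultures. DESeq2 let it pass in all 3 mutant genotypes, and the fit of only the genotypes compared in 61H/H. Its estimates without single cultures ran from 0.62 to 1.33 for 61R/R, then 0.82 to 1.22 for 61H/H, and 0.92 to 1.75 for 61P/P.

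Anpep was at 11.6, 18.0 and 13 CPM in 61R/R replicates 1 to 3, at 13.2, 11.4 and 11.7 CPM in 61H/H, at 31.0, 12.4 and 13.1 CPM in 61P/P, and at 10.2, 10.3 and 10.4 CPM in 61Q/Q. The 61Q/Q cultures were within 1.02-fold of each other and all below the mutant cultures, but the lowest 61H/H culture was close above them. The log2 fold change was 0.46 (SE 0.30) in 61R/R, 0.23 (SE 0.30) in 61H/H and 0.87 (SE 0.30) in 61P/P, and none passed. Without 61P/P replicate 1 the value for 61P/P was 0.30. Without that culture the fit over the other 11 also let Anpep pass in 61R/R, at a log2 fold change of 0.46, where 24% of all genes passed. DESeq2 let Anpep pass in 61P/P, where 15.3% of all genes passed.

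Mme, which encodes neprilysin, had its highest mean in 61P/P, as Enpep and Anpep did, but with 61H/H rather than 61R/R next. It was at 11.9, 18.2 and 15.2 CPM in 61R/R replicates 1 to 3, at 36.1, 14.6 and 20.1 CPM in 61H/H, at 77.5, 31.2 and 28.5 CPM in 61P/P, and at 15.6, 11.2 and 7.84 CPM in 61Q/Q. The 61P/P cultures were all above the 61R/R and the 61Q/Q cultures, while those of 61R/R and 61H/H overlapped 61Q/Q. Mean levels were 15.1 CPM in 61R/R, 23.6 CPM in 61H/H, 45.7 CPM in 61P/P and 11.6 CPM in 61Q/Q.

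The log2 fold change of Mme over 61Q/Q was 0.39 (SE 0.43) in 61R/R, 1.03 (SE 0.43) in 61H/H and 1.98 (SE 0.44) in 61P/P, and the last one passed. It no longer passed without 61P/P replicate 1, at a log2 fold change of 1.37, nor without 61P/P replicate 2, 61Q/Q replicate 1 or 61Q/Q replicate 3, nor in the fit of only the genotypes compared. Without 61P/P replicate 1, the fit let Mme pass in 61H/H over 61Q/Q, at 1.03, where 32.5% of all genes passed.

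Dpp4 was the least abundant of the 8 genes. It was at 0.470, 0.258 and 0.333 CPM in 61R/R replicates 1 to 3, at 0.164, 0.371 and 0.357 CPM in 61H/H, at 0.710, 0.0679 and 0.154 CPM in 61P/P, and at 0.366, 0.390 and 0.327 CPM in 61Q/Q. All genotypes overlapped, and the highest and the lowest of the 12 cultures were both 61P/P, at 58 and 5 counts. The log2 fold change was -0.03 (SE 0.64) in 61R/R, -0.28 (SE 0.64) in 61H/H and -0.21 (SE 0.64) in 61P/P. Without 61P/P replicate 1 the value for 61P/P was -1.67.

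Counting cultures that do not overlap, 4 of 8 genes were wholly higher in 61R/R than in 61Q/Q (Ace, Agtr2, Enpep and Anpep), where 17.9% of all genes tested were. The same 4 were wholly higher in 61H/H, where 24.5% of all genes were, and Agtr1a was wholly lower, where 23.5% were. In 61P/P these 4 and Mme, 5 of 8, were wholly higher, where 13.9% of all genes were.

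The culture 61P/P replicate 1 stood apart from the other 61P/P cultures for most of the genes. It held the highest level of all 12 cultures for 6 of the 8 genes (Agt, Agtr1a, Mme, Enpep, Anpep and Dpp4), and it held the highest level for 18.5% of all genes tested, the largest share of any culture. The next highest culture was at 0.876 CPM for Agt, 2.45 CPM for Agtr1a, 36.1 CPM for Mme, 3.46 CPM for Enpep, 18.0 CPM for Anpep and 0.470 CPM for Dpp4. For Ace it was at 2.18 CPM, beside 2.20 and 1.86 CPM in the other 61P/P cultures, and the log2 fold change of Ace in 61P/P was 2.57 without it. The summed CPM of 6 preadipocyte and adipocyte markers was 42.7 in this culture and 17.3 and 20.5 in the other 61P/P cultures, against 18.5 to 24.3 in 61Q/Q. That of 5 chondrocyte markers was 243 in this culture and 118 and 107 in the other 61P/P cultures, against 78.7 to 173 in 61Q/Q. This culture was also the female one of its genotype. With the sex term, added after the data were seen, the log2 fold change in 61P/P over 61Q/Q was 1.73 for Agt and 0.33 for Agtr1a. It was 1.93 for Mme, 1.35 for Enpep, 0.77 for Anpep and -0.42 for Dpp4. The part of sex or of the cell types marked in the levels of this single culture was not tested.

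**Figure D4:**
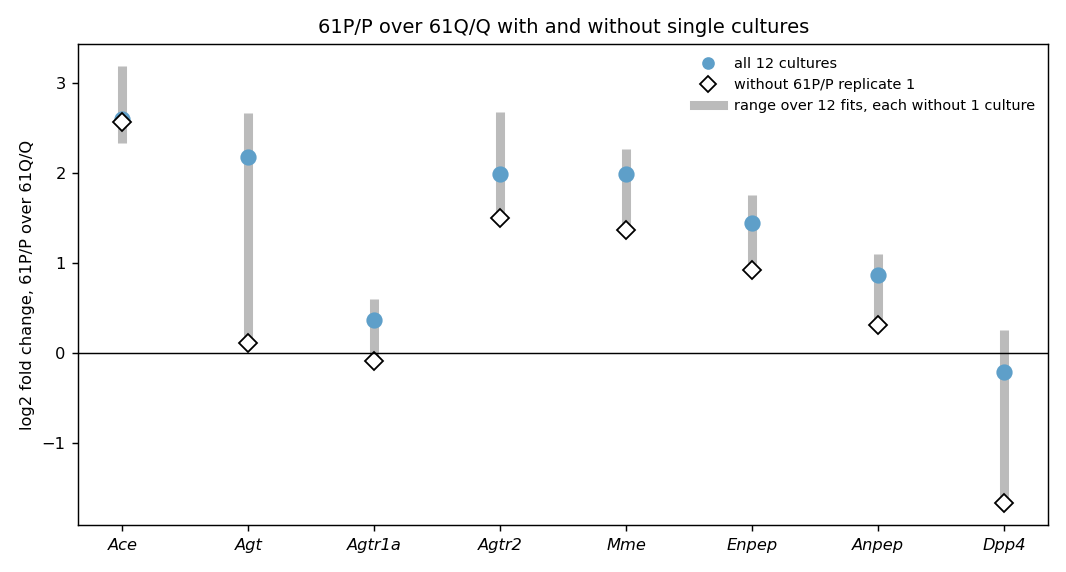
Log2 fold change of 61P/P over 61Q/Q (vertical axis) for each of the 8 genes; circles are the fit of all 12 cultures, diamonds the fit without 61P/P replicate 1, and grey bars the range over 12 fits that each leave out 1 culture. Agt drops to 0.11 and Anpep to 0.30 without that culture, while Ace stays at 2.57.

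Between the mutant genotypes, 0 of the 8 genes passed in edgeR's fit of all 12 cultures. In 61R/R over 61P/P, where 3.45% of all genes passed, Mme was wholly lower in 61R/R, with a log2 fold change of -1.60 (SE 0.43), and it was the only gene of the 8 that did not overlap (13% of all genes were wholly lower). Mme did pass as lower in this comparison with DESeq2, where 10.6% of all genes passed, and without 61P/P replicate 3, where 4.76% did. Without 61P/P replicate 1 the log2 fold change was -0.98. In 61H/H over 61P/P, where 2.49% of all genes passed, Ace was wholly higher in 61H/H, with a log2 fold change of 0.92 (SE 0.45), again the only gene of the 8 (17% of all genes were wholly higher). Ace passed there in the fit of only the genotypes compared, where 5.09% of all genes passed. Ace was at 0.13 (SE 0.45) in 61R/R over 61P/P and Agtr2 at 0.58 (SE 0.52) in 61R/R and 0.84 (SE 0.52) in 61H/H over 61P/P, with overlapping cultures.

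In 61R/R over 61H/H, all 8 genes overlapped, and 12.5% of all genes tested did not overlap. The log2 fold changes ran from -0.79 (SE 0.45) for Ace to 0.24 (SE 0.64) for Dpp4. In this comparison 0% of all genes passed in edgeR, although 778 of 15759 had an unadjusted p under 0.05, and DESeq2 called 24 genes and limma-voom 0.

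Per kilobase of gene length, which lets different genes be compared, the order of mean levels over the 12 cultures was Agtr2 (10.1 CPM per kb), Anpep (4.05), Mme (3.76), Agtr1a (0.894), Agt (0.543), Enpep (0.483), Ace (0.408) and Dpp4 (0.0525). The cultures of neighbours in this order overlapped in every case, with ranges of 1.38 to 22.5 CPM per kb for Agtr2, 2.98 to 9.07 for Anpep, 1.23 to 12.1 for Mme and 0.0381 to 0.917 for Ace. The order was not the same in each genotype. In 61Q/Q, Anpep (3.01 CPM per kb) stood above Agtr2 (2.24), in replicates 1 and 3 but not in replicate 2. The mean of Agt was 1.23 CPM per kb in 61P/P, with 3.11 in replicate 1, beside 0.319 in 61R/R, then 0.344 in 61H/H, with 0.276 in 61Q/Q. In 61H/H, Ace (0.746 CPM per kb) stood above Agtr1a (0.716), and Mme (3.70) stood above Anpep (3.54), as it did in 61P/P, with 7.16 for Mme and 5.50 for Anpep. Agtr2 lay above 65% of all genes tested, Anpep above 45.4%, Mme above 44.1%, Ace above 19.2% and Dpp4 above 3.54%. Agtr2 made up 16.1% to 65.4% of the summed level per kb of the 8 genes, depending on the culture. Of the 2 receptor genes, Agtr2 had the higher level on this scale, at a mean of 10.1 CPM per kb against 0.894 CPM per kb of Agtr1a.

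Among the other members, Mme, Enpep, Anpep and Agt were correlated with one another. Over the 12 cultures r was 0.832 between Enpep and Anpep, 0.774 between Mme and Anpep, 0.738 between Mme and Enpep and 0.849 between Agt and Anpep, and after subtraction of genotype means these were 0.808, 0.770, 0.639 and 0.850. Spearman's rho was 0.811, 0.748, 0.664 and 0.615 in the same order, and all 4 genes were highest in 61P/P replicate 1. Dpp4 did not follow the other peptidases, with r = -0.02 for Enpep, -0.15 for Mme and 0.271 for Anpep.

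Among the 12003 genes compared (12004 for Agt and Dpp4) over the 12 cultures, those most like Ace by Pearson's r of log2 CPM were Efna5 (0.983), which encodes an ephrin ligand, Mb21d2 (0.979) and Hdac3 (0.978), which encodes a histone deacetylase. Efna5 averaged 75.0 ± 8.85 CPM in 61R/R, 86.9 ± 5.42 CPM in 61H/H, 77.2 ± 2.13 CPM in 61P/P and 57.0 ± 4.38 CPM in 61Q/Q (SD, n = 3 each), a narrower range than that of Ace. Those most like Agtr2 were Zbtb12 (0.985), Cd55 (0.985), which encodes a complement regulator, and Tgfbr3 (0.985), which encodes betaglycan. Those most like Mme were Add3 (0.968), Trabd2b (0.964) and Abhd14b (0.960), and those most like Enpep were Gstm1 (0.965), Hnrnpr (0.955) and Osr2 (0.947). For Anpep they were Rhobtb1 (0.957), Tshz1 (0.951) and Tril (0.948), for Agt Angel2 (0.954), Lancl1 (0.942) and Serpine2 (0.926), for Agtr1a Stard8 (0.940), Clasp2 (0.937) and Arsg (0.936), and for Dpp4 Slc37a2 (0.914), Ppp2r5a (0.903) and Arap3 (0.893).

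Markers of cell types were examined beside these levels. Fibroblast markers were detected in all cultures, at a summed 13277 to 22417 CPM in 61R/R, 13178 to 14650 in 61H/H, 19889 to 22684 in 61P/P and 26538 to 36162 in 61Q/Q. The genes of this list differed. Col1a1 ran from 4118 to 20733 CPM, but Dcn from 10.4 to 23.9 and Lum from 3.91 to 25.2 CPM. Col1a1 and Col1a2 passed as lower in 61R/R and 61H/H, and Thy1 in 61H/H and 61P/P. Pdgfra passed as higher in 61R/R and 61H/H, and Vim in 61H/H. Markers of Dpp4-type fibroblast progenitors, a list of 8 genes that does not hold Dpp4, summed to 454 to 586 CPM in 61R/R, 537 to 708 in 61H/H, 478 to 561 in 61P/P and 404 to 442 in 61Q/Q. The sums of all 3 mutant genotypes lay above 61Q/Q, as the levels of Ace and Agtr2 did, with Cd34, Ly6a and Cd55 among those that passed as higher in both 61R/R and 61H/H, and Cd55 in 61P/P, while Limch1 passed as lower in 61R/R and 61H/H. Pi16, a defining gene of that list, was at 0.144 to 0.225 CPM in 61R/R, 0.197 to 0.376 CPM in 61H/H, 0.0709 to 0.893 CPM in 61P/P and 0.0845 to 0.195 CPM in 61Q/Q, so that only 61H/H was clear of 61Q/Q. Wnt2, of the same list, was at 0.511 to 0.698 CPM in 61R/R, 0.185 to 0.923 CPM in 61H/H, 0.827 to 3.87 CPM in 61P/P and 0.730 to 1.69 CPM in 61Q/Q, wholly lower in 61R/R.

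Mesothelial markers, 5 of 5 tested, summed to 28.8 to 52.8 CPM in 61R/R, 41.5 to 82.4 in 61H/H, 14.4 to 39.1 in 61P/P and 12 to 19.5 in 61Q/Q. Msln passed as higher in 61R/R and 61H/H and Krt19 in 61H/H. Upk3b and Lrrn4 stayed under 0.43 CPM in all cultures. Wt1 was at 0.755 to 1.11 CPM in 61R/R, 0.417 to 0.850 in 61H/H, 0.271 to 0.734 in 61P/P and 0.197 to 0.852 in 61Q/Q. Upk3b, Lrrn4 and Wt1 did not pass over 61Q/Q. Endothelial cells are a major site of Ace, and their markers summed to 7.55 to 9.58 CPM in 61R/R, 10.6 to 13.7 in 61H/H, 9.77 to 13.6 in 61P/P and 7.46 to 8.55 in 61Q/Q. Of the endothelial list, Cldn5 was at 0 in all cultures of 61R/R, 61H/H and 61Q/Q, and Tie1 was at most 0.0591 CPM. Pecam1 was at 0.222 to 0.438 CPM in 61R/R, 0.255 to 0.378 in 61H/H, 0.165 to 0.326 in 61P/P and 0.268 to 0.422 in 61Q/Q. Kdr was higher, at 2.87 to 4.60 CPM in 61R/R, 4.32 to 6.92 in 61H/H, 3.46 to 7.81 in 61P/P and 4.19 to 5.31 in 61Q/Q. Emcn was at 1.44 to 2.22 CPM in 61R/R, 0.718 to 1.49 in 61H/H, 1.14 to 1.30 in 61P/P and 1.14 to 1.63 in 61Q/Q. Tek passed as higher in 61H/H and 61P/P and Cdh5 in 61R/R. Macrophage markers, a cell type that can also carry Ace and Anpep, summed to 117 to 214 CPM in 61R/R, 103 to 159 in 61H/H, 104 to 262 in 61P/P and 184 to 268 in 61Q/Q, where 61R/R and 61P/P overlapped 61Q/Q and 61H/H lay below it. Pericyte and smooth muscle markers summed to 1698 to 3420 CPM in 61R/R, 1829 to 2348 in 61H/H, 3045 to 3296 in 61P/P and 3964 to 5935 in 61Q/Q. Epithelial markers summed to 5.13 to 9.53 CPM in 61R/R, 5.69 to 7.98 in 61H/H, 2.08 to 3.28 in 61P/P and 4.30 to 5.26 in 61Q/Q, so that 61H/H lay above and 61P/P below 61Q/Q, and Krt18 passed as higher in 61R/R and Krt8 as lower in 61P/P. The part of these cell types in the levels of the 8 genes was not tested.

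Beyond the 8 genes, 75 other genes of the same pathways and peptidase families were listed by function, also with earlier results of these data known, 74 were in the count file and 63 were tested. In 61R/R over 61Q/Q, 7 of 63 rose and 6 fell (20.6%, beside 19% of all genes). In 61H/H over 61Q/Q, 8 rose and 12 fell (31.7%, beside 28.2%), and in 61P/P over 61Q/Q, 3 rose and 4 fell (11.1%, beside 6.85%). These shares were near those of all genes. Without 61R/R replicate 2 or 3 or 61Q/Q replicate 1 or 3, 0 of the 63 passed in 61R/R, where 0% of all genes passed. Without 61P/P replicate 2, 61Q/Q replicate 1 or 61Q/Q replicate 3, 0 passed in 61P/P, where 0.0312%, 0.363% and 0% of all genes passed. Without 61P/P replicate 1, 2 passed in 61P/P, beside 1.40% of all genes.

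Of the renin-angiotensin and kinin list, 1 of 13 tested rose in 61R/R (7.69%, beside 19% of all genes), 0 of 13 passed in 61H/H by edgeR (3 had an unadjusted p under 0.05), beside 28.2% of all genes, and 1 of 13 fell in 61P/P (7.69%, beside 6.85%). The one that rose was Agtr1b, the second type 1 receptor gene of rodents, at 0.721 ± 0.281 CPM in 61R/R and 0.127 ± 0.0419 CPM in 61Q/Q (SD, n = 3 each), with an adjusted p of 0.0194. It was at 1.31 (SE 0.51) and 1.79 (SE 0.50) on the log2 scale in 61H/H and 61P/P over 61Q/Q, which did not pass. Atp6ap2, the (pro)renin receptor, fell by 0.35 (SE 0.08) on the log2 scale in 61P/P (adjusted p = 0.0316). Ren1, the renin gene, had 0 counts over the 12 libraries, which allows up to 3 counts for the total, but its exons overlap an entry named Ren2, also at 0, and how reads shared by both were counted was not tested.

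Among peptidases, Erap1, an aminopeptidase of the same family as Anpep and Enpep that trims antigenic peptides in the endoplasmic reticulum, fell by 0.49 (SE 0.11) in 61R/R and 0.64 (SE 0.11) in 61H/H on the log2 scale (adjusted p = 0.021 and 0.00455). Fap, the closest relative of Dpp4 and a marker of activated fibroblasts, was at 3.16 ± 0.856 CPM in 61H/H, 3.68 ± 0.798 CPM in 61P/P and 8.34 ± 1.74 CPM in 61Q/Q (SD, n = 3 each), and fell in both (adjusted p = 0.00536 and 0.0297). It was at 5.01 ± 1.46 CPM in 61R/R, with an adjusted p of 0.0657. Phex, a relative of neprilysin known from bone, rose by 1.16 (SE 0.23) in 61R/R and 0.88 (SE 0.23) in 61H/H, and Dpep1, a membrane dipeptidase, fell by 0.95 (SE 0.24) in 61H/H and 1.22 (SE 0.25) in 61P/P on the log2 scale.

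Of 19 peptide substrates and their receptors, 8 passed in 61R/R (42.1%, beside 19% of all genes), 11 in 61H/H (57.9%, beside 28.2%) and 4 in 61P/P (21.1%, beside 6.85%) over 61Q/Q. The 61R/R calls were among those lost without 61R/R replicate 2 or 3 or 61Q/Q replicate 1 or 3, and nothing particular to the list is read from these shares. Edn1, which encodes endothelin 1, a substrate of neprilysin, was at 3.73, 1.39 and 1.48 CPM in 61R/R, at 1.21, 1.54 and 1.58 CPM in 61H/H, at 2.62, 2.16 and 2.36 CPM in 61P/P, and at 8.77, 5.54 and 7.84 CPM in 61Q/Q. No mutant culture reached the 61Q/Q range, and Edn1 fell by 1.75 (SE 0.34) in 61R/R, 2.35 (SE 0.34) in 61H/H and 1.63 (SE 0.33) in 61P/P on the log2 scale (adjusted p = 0.0194, 0.0043 and 0.0251). Tacr1, the receptor of substance P, which both Ace and neprilysin degrade, rose by 1.29 (SE 0.28), 1.76 (SE 0.28) and 1.68 (SE 0.28) in the same order (adjusted p = 0.0202, 0.0043 and 0.0188). Calcrl, the receptor subunit for adrenomedullin, rose by 0.57, 0.55 and 0.60, each with an SE of 0.11, and its ligand gene Adm rose by 0.81 (SE 0.19) in 61R/R and 1.12 (SE 0.19) in 61H/H.

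Ednrb, an endothelin receptor, rose by 1.82 (SE 0.44) in 61H/H and 2.15 (SE 0.44) in 61P/P, although limma-voom did not call it in 61P/P, and Npr3, the clearance receptor of natriuretic peptides, fell by 1.77 (SE 0.45) in 61R/R and 2.42 (SE 0.46) in 61H/H on the log2 scale. Nppc, which encodes a natriuretic peptide, was called higher in 61R/R and 61H/H from 10 to 40 counts per library, against 6, 4 and 0 counts in 61Q/Q replicates 1 to 3. The call of Nppc in 61R/R (adjusted p = 0.0413 in edgeR) was lost in 10 of 12 fits that each left out 1 library and in the fit of only the genotypes compared, and that in 61H/H (adjusted p = 0.0204) in 2 of 12 fits, without 61H/H replicate 1 or 61Q/Q replicate 3. The shared 61Q/Q cultures enter all 3 comparisons.

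**Figure D5:**
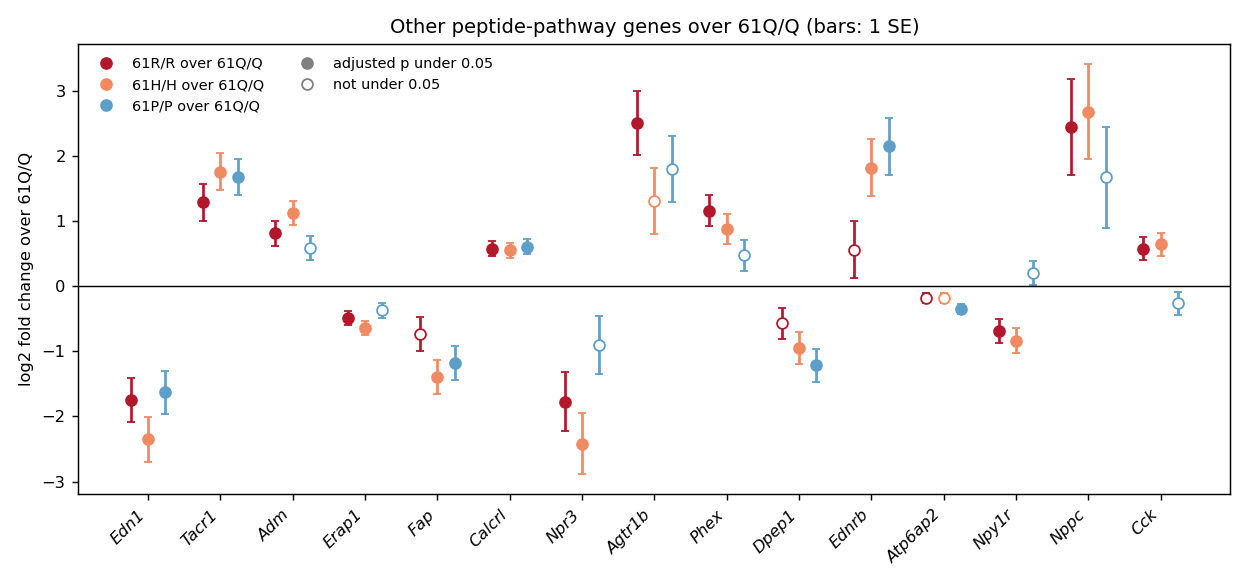
Log2 fold change over 61Q/Q (vertical axis) of the 15 other pathway genes named by rule, in the 3 mutant genotypes; bars are 1 SE and filled points had an adjusted p under 0.05. Edn1 is between -2.35 and -1.63 and Tacr1 between 1.29 and 1.76 in all 3 genotypes, and Npy1r lies at -0.69 in 61R/R and -0.84 in 61H/H, with 0.20 in 61P/P.

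Between mutants, 3 of the 63 passed in 61R/R over 61P/P (4.76%, beside 3.45% of all genes) and 2 in 61H/H over 61P/P (3.17%, beside 2.49%). In 61R/R over 61H/H, 0 passed by edgeR, beside 0% of all genes (5 had an unadjusted p under 0.05, and DESeq2 and limma-voom called 0). These shares were near those of all genes. Cck, which encodes cholecystokinin, rose by 0.84 (SE 0.18) in 61R/R and 0.90 (SE 0.18) in 61H/H over 61P/P on the log2 scale (adjusted p = 0.0359 and 0.0369). Npy1r, a receptor of neuropeptide Y, which Dpp4 trims, was at 7.67 ± 1.37 CPM in 61R/R, 6.92 ± 0.651 CPM in 61H/H, 14.2 ± 1.01 CPM in 61P/P and 12.4 ± 3.78 CPM in 61Q/Q (SD, n = 3 each), and fell in both comparisons with 61P/P (adjusted p = 0.0366 and 0.0329).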

How the data were processed

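RNA was sequenced from 12 MEF cultures after ribosomal depletion and stranded total RNA library preparation. Per the labels and the study's methods, the authors used STAR for alignment to mm10, Picard 2.17.11 for marking duplicates and featureCounts for the gene counts. The strand setting is not given in the sources used here. The deposited file of raw counts holds whole numbers for 24419 genes, of which 25 have symbols turned into dates. A deposited file of normalized counts was not used. The 8 genes and the lists were chosen with earlier results of these data known.

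In R 4.3.3 with edgeR 4.0.16, filterByExpr by genotype kept 15759 genes. After TMM scaling, 1 quasi-likelihood model, in which each genotype had its own mean, was fitted across all genes to the 12 libraries (biological coefficient of variation 15.7%). The study itself used DESeq2. Benjamini-Hochberg adjustment of p ran over all genes tested in each of 6 comparisons of genotypes. CPM was taken from these counts, log2 CPM with a prior count of 2. Each SE was derived as the absolute log2 fold change divided by the square root of the quasi-likelihood F statistic, since edgeR prints none. Total counts ran from 73222911 to 92179519 per library, and 4035 genes had 0 counts throughout. Separate embryos give the spread that p measures. Litters and batches of infection are not given in the sources used here, so whether they coincide with genotype could not be examined. Other pathway genes were named where called over 61Q/Q, up to the 15 with the smallest p, of 23 called. Genes of like pattern were the 3 with the highest Pearson's r, taken where the mean level was 1 CPM or more, predicted genes left out.

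Alternatives were RLE and upper quartile scaling, Rn45s left out of totals, no filter, a minimum of 1 CPM in every library, a replicate block, a fit restricted to both genotypes of a comparison, DESeq2 1.42.0, limma-voom (limma 3.58.1), and leaving out each library. A sex term was added after the data were seen. The scripts were tested on simulated data. Replicate numbers were checked for pairing: same-numbered libraries correlated at -0.0778 to 0.344 after genotype means were subtracted, over 0.1 in 6 of 18 pairs, so they were not treated as pairs. Promoter windows and motif shares came from RefSeq on GRCm38.p6.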

Additional observations from a re-analysis of the deposited data

Results flagged for a closer look

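Among the other pathway genes, 5 differences between mutant genotypes passed edgeR's quasi-likelihood test over all genes, which means that their effects relative to the shared 61Q/Q cultures differed. The shares of these genes that passed were 4.76% in 61R/R and 3.17% in 61H/H over 61P/P, beside 3.45% and 2.49% of all genes. Pcsk6, a proprotein convertase, was 1.57 lower on the log2 scale in 61R/R than in 61P/P (log2 fold change -1.57), at 21.1, 16.5 and 15.4 CPM in 61R/R replicates 1 to 3, against 84.2, 36.0 and 37.0 CPM in 61P/P. Npy1r had log2 fold changes of -0.89 in 61R/R and -1.04 in 61H/H over 61P/P. Cck had log2 fold changes of 0.84 in 61R/R and 0.90 in 61H/H over 61P/P. None of the 5 held when 61R/R replicate 3, 61H/H replicate 3, 61P/P replicate 1 or 61P/P replicate 2 was left out. Of the 8 genes of angiotensin and peptide processing, 0 passed between mutant genotypes in that fit, and Mme and Ace passed under the alternatives named with them.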

How the results depend on the processing

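All of Ace's log2 fold changes over 61Q/Q kept their sign in the 9 alternatives that kept Ace and in 12 fits that each left out 1 library. With 1 library left out those of 61R/R ran from 2.03 to 3.32, those of 61H/H from 3.26 to 4.11 and those of 61P/P from 2.33 to 3.19. At a minimum of 1 CPM in all 12 libraries, Ace, Agt, Enpep and Dpp4 were not tested. Over 61Q/Q, DESeq2 called 3 of the 8 genes for 61R/R and 3 for 61H/H, and 6 for 61P/P, beside 26.3%, 33.3% and 15.3% of all genes. The fit of only the genotypes compared called 0 of 8 in 61R/R, where 0% of all genes passed, and 3 of 8 in 61H/H, beside 29.3%. It called 1 of 8 in 61P/P, beside 3.12% of all genes, and Mme was lost there.

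The count of other pathway genes called, of 63, moved by over 1.5 times as follows. In 61R/R over 61Q/Q (13) it was 0 with only those genotypes and 0 to 19 with 1 library left out. In 61H/H over 61Q/Q (20) it was 8 to 24 with 1 library left out. In 61P/P over 61Q/Q (7) it was 15 with DESeq2 and 0 to 13 with 1 library left out. The share of all genes called moved as well. In 61R/R over 61Q/Q (19%) it was 0% with only those genotypes and 0% to 28.4% with 1 library left out. In 61H/H (28.2%) it was 11.8% to 34.3% with 1 library left out. In 61P/P (6.85%) it was 15.3% with DESeq2 and 0% to 15% with 1 library left out. The count in 61R/R over 61P/P (3) was 5 without a filter, 6 with the replicate block, 0 with only those genotypes, 8 with DESeq2, 5 with limma-voom and 0 to 7 with 1 library left out. The share of all genes there (3.45%) was 2.82%, 6.38%, 0.32%, 10.6%, 3.59% and 0% to 9.16% in the same order. The count in 61H/H over 61P/P (2) was 5 with the replicate block, 5 with only those genotypes, 10 with DESeq2 and 0 to 8 with 1 library left out. The share of all genes there (2.49%) was 6.36%, 5.09%, 11.8% and 0% to 7.88% in the same order. With the replicate block, Ace was at 2.70 in 61R/R and 3.66 in 61H/H over 61Q/Q, and the same members passed as without it in all 3 comparisons with 61Q/Q, but Mme passed as lower in 61R/R over 61P/P, at -1.40, and Nppc lost its call in 61R/R over 61Q/Q. Same-numbered libraries were not found to be pairs. The cause of these changes was not tested. The fewest reads were those of Dpp4, with 5 to 58 counts per library, and whether depth limits its comparisons was not tested.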
